A study of Homo sapiens with 148 samples.

Results

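ADNP, CHD4 and 8 related genes that encode subunits or paralogues of the ChAHP and NuRD complexes were followed as cultured human embryonic stem cells (hESCs) were turned into islet-like organoids of the pancreas. The genes were taken by name (ADNP, ADNP2, CHD3, CHD4, CHD5, MTA1, MTA2, MTA3, MBD2 and MBD3). All 10 were found among the 49085 gene names of the expression table, each as a single entry. The cells were WT cells of the H9 line, an established hESC line, and every stage was derived from that line. The hESCs were undifferentiated, and the other groups had undergone pancreatic differentiation in culture to definitive endoderm (DE), cells like those of the primitive gut tube (PGT), progenitors of the pancreas (PP), and organoids with β cells made from the stem cells (SC-β). A further group is labelled PH, a stage that neither the labels nor the study's text defines, and its place in the sequence of stages is therefore not given here. Of the 148 samples of the series, 12 are RNA-seq libraries, with 2 for each stage.

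Each value is a TPM level, an RNA abundance corrected for transcript length and for the total of the sample. The authors deposited only the mean of the replicates, so no value carries an error, the spread between replicates is unknown, and no stage was tested against another. Neighbouring values in any order of stages can therefore not be told apart or declared different. The depth behind each value is also unknown, since TPM keeps no read counts. Log2 ratios carry a pseudocount of 1 TPM, which understates the change of genes with low levels, and a ratio was counted from 2-fold. The cells were measured in bulk, in which fewer cells of a type and less RNA per cell cannot be told apart.

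CHD4 is an ATP-dependent nucleosome remodeller that works in several complexes. In NuRD it is joined to histone deacetylases, MTA scaffold proteins, histone-binding RBBP proteins, GATAD2 proteins and either MBD2 or MBD3, which exclude each other. In ChAHP, CHD4 is bound by the zinc finger and homeodomain protein ADNP together with heterochromatin protein HP1, a reader of H3K9 methylation, and this complex occupies sites that CTCF can also bind. CHD3 and CHD5 are paralogues of CHD4 that can take its place as the NuRD ATPase, and CHD5 is best known from neurons.

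Among the 3 ATPases, CHD4 was at a high level in every stage, CHD3 differed most between stages of all 10 genes, and CHD5 stayed under 1 TPM. CHD4 (chr12:6570082-6614524, minus strand) stood at 136.0 TPM in hESCs, 203 TPM in DE, 171 TPM in PGT, 182.4 TPM in PP, 175 TPM in SC-β and 180.1 TPM in PH. As deposited, the lowest level was that of hESCs and the highest that of DE, 1.49-fold apart. On the log2 scale the range of CHD4 was 0.58, wider than that of only 5.95% of the 12849 names that reached 10 TPM in some stage. CHD4 ranked above 98.6% of all names in hESCs and above at least 99.1% in each other stage.

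CHD3 (chr17:7884796-7912760, plus strand) stood at 4.99 TPM in hESCs, 41.9 TPM in DE, 29.7 TPM in PGT, 55.5 TPM in PP, 96.9 TPM in SC-β and 138 TPM in PH. Its level was thus lowest in hESCs, intermediate in DE, PGT and PP, and highest in SC-β and PH. PH was 27.7-fold above hESCs, and the range of CHD3, 4.54 on the log2 scale, exceeded that of 95.1% of the names at 10 TPM or more. Against hESCs the log2 ratio of CHD3 was 2.84 in DE, 2.36 in PGT, 3.24 in PP, 4.03 in SC-β and 4.54 in PH.

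The balance of the paralogues moved with CHD3. Of the summed TPM of CHD3, CHD4 and CHD5, CHD3 made up 3.53% in the hESCs, then 17.1% in DE and 14.8% in PGT, followed by 23.3% in PP, 35.6% in SC-β and 43.3% in PH. The ratio of CHD4 to CHD3 was 27.3 in hESCs and 1.30 in PH, so CHD4 remained the more abundant of the pair in all 6 stages. The sum of the 3 ATPases was 141 TPM in hESCs and between 200.4 and 319 TPM in the other stages.

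CHD5 (chr1:6101787-6180321, minus strand) stood at 0.458 TPM in hESCs, 0.147 TPM in DE, 0.146 TPM in PGT, 0.214 TPM in PP, 0.361 TPM in SC-β and 0.958 TPM in PH. PH was the highest stage also for this paralogue. At these levels, which made up at most 0.324% of the ATPase sum, the pseudocount keeps the log2 range at 0.77.

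**Figure D1:**
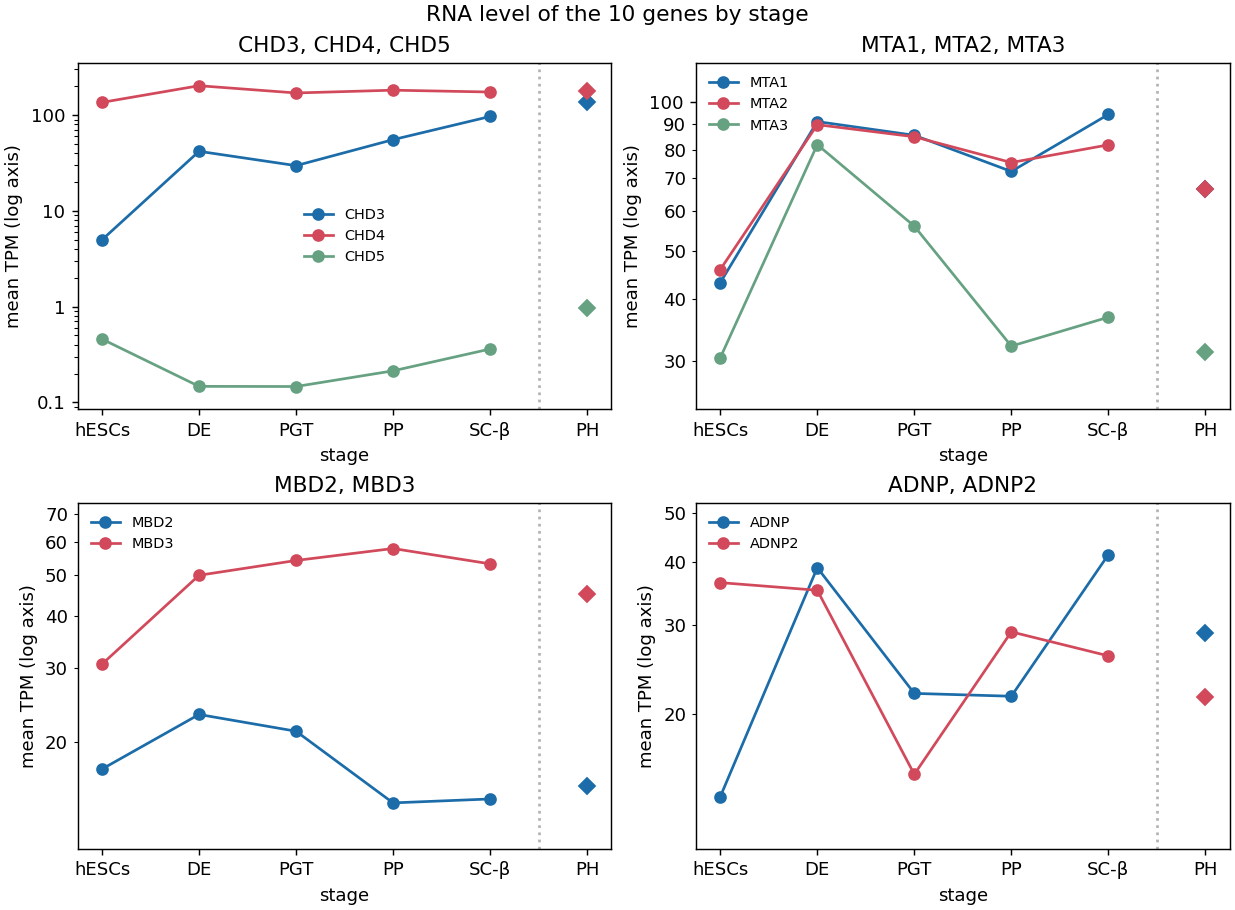
Mean TPM (log axis, with its own range in each panel) of the 10 genes in each stage, grouped by paralogues; each point is the authors' mean of the replicates, without an error bar. Lines join the stages from hESCs to SC-β, diamonds to the right of the dotted line show PH, and the PH points of MTA1 and MTA2 (66.7 and 66.6 TPM) coincide; CHD3 lies at 4.99 TPM in hESCs and at 96.9 TPM in SC-β, while CHD4 stays between 136.0 and 203 TPM.

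The stretch of 250 bases before a RefSeq start of each of the 2 abundant ATPase genes is shown. CpG dinucleotides (the letters CG) are in capitals and the rest in lower case. Each stretch reads 5′ to 3′ along the gene's own strand, from RefSeq on GRCh38.p14. The CHD3 window is chr17:7888539-7888788 on the plus strand, and the CHD4 window is chr12:6606452-6606701 on the minus strand.
CHD3: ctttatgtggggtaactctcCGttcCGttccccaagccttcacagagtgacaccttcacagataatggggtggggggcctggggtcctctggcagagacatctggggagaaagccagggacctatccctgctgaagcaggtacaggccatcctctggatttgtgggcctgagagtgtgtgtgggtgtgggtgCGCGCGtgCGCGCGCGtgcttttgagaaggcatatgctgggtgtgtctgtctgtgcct
CHD4: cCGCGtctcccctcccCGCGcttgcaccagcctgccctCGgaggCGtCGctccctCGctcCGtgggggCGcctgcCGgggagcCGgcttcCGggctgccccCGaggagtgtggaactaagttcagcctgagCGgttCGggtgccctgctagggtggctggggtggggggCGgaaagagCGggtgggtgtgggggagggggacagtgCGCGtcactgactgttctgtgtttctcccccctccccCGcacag
The CHD3 window held 9 CpG dinucleotides, more than 45.9% of the 35116 RefSeq promoter windows of that length, whose median was 11. The CHD4 window held 21, more than 69.8% of them. In the CHD3 window most of the CpGs lie in neighbouring short runs of CG toward its 3′ end, whereas those of CHD4 are spread through its window. These counts describe the windows only, and a link to the RNA levels was not tested. Both windows lie within the GENCODE extent of their gene given above, since each gene also has annotated starts farther upstream, and the table does not show which start site was used. ADNP2 and CHD5 have no entry in the promoter table, and the other 8 genes matched. Of those not shown, the ADNP windows held 6 and 5 CpGs, the MTA1 window 30 and the MTA2 windows 25 and 33. The MTA3 windows held 41 and 3, the MBD2 window 21 and the MBD3 window 32.

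Small RNA genes lie inside CHD3 and CHD4. Others lie on the same strand inside MBD2 (SNORA37) and MTA3 (RNU6-137P and Metazoa_SRP). SCARNA21 (139 bases, chr17:7906122-7906260) lies on the same strand within intron 28 of the canonical CHD3 transcript, which has 40 exons, and overlaps none of them. The table has 4 entries of that name without coordinates, so which of them is the copy inside CHD3 is not known. The highest of them stood at 32.7 TPM in hESCs, 166 TPM in DE, 271 TPM in PGT, 295 TPM in PP, 675 TPM in SC-β and 1019 TPM in PH, between 3.96 and 9.14 times the CHD3 level. Like CHD3 it was lowest in hESCs and highest in PH, but its PGT level was above that of DE. How reads were divided between the overlapping genes is not given in the sources used here, and the part of SCARNA21 in the CHD3 values was not tested. SCARNA11, within intron 31 of CHD4, has 3 entries, the highest of which lay between 1.72 and 9.19 TPM. Which of these is the copy inside CHD4 is likewise not known. CHD3 also overlaps NAA38 on the opposite strand, and MTA1 overlaps TEX22 on the same strand.

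ADNP and ADNP2 are zinc finger and homeodomain proteins of 1 family, of which ADNP is the defining subunit of ChAHP. ADNP (chr20:50888916-50931437, minus strand) stood at 13.7 TPM in hESCs, 39.0 TPM in DE, 22.0 TPM in PGT, 21.7 TPM in PP, 41.4 TPM in SC-β and 29.0 TPM in PH. As deposited, DE and SC-β were the high stages and hESCs the lowest, with a 3.02-fold span. The log2 ratio to hESCs was 1.44 in DE, 0.64 in PGT, 0.62 in PP, 1.53 in SC-β and 1.03 in PH. ADNP also overlaps the antisense gene ADNP-AS1.

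ADNP2 (chr18:80109262-80147523, plus strand) followed another order. It stood at 36.4 TPM in hESCs, 35.2 TPM in DE, 15.2 TPM in PGT, 29.1 TPM in PP, 26.1 TPM in SC-β and 21.6 TPM in PH. hESCs and DE were highest and PGT was lowest, with log2 ratios of PGT of -1.21 to hESCs and -1.16 to DE. PP was again above PGT, by 0.89 on the log2 scale. ADNP accordingly made up 27.4% of the sum of the pair in hESCs, then 52.6% in DE and 59.1% in PGT, followed by 42.7% in PP, 61.3% in SC-β and 57.3% in PH. ADNP was the less abundant of the pair in hESCs and PP and the more abundant in the other 4 stages.

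The MTA proteins form the scaffold that holds the NuRD deacetylases. MTA1 (chr14:105419820-105470729, plus strand) stood at 43.1 TPM in hESCs, 91.1 TPM in DE, 85.5 TPM in PGT, 72.3 TPM in PP, 94.2 TPM in SC-β and 66.7 TPM in PH. MTA2 (chr11:62593214-62601865, minus strand) stood at 45.8, 89.8, 84.9, 75.3, 81.8 and 66.6 TPM in the same stages. These paralogues kept nearly equal levels, with a ratio of MTA1 to MTA2 between 0.941 in hESCs and 1.15 in SC-β. Both were lowest in hESCs. The log2 ratio of DE to hESCs was 1.06 for MTA1 and 0.96 for MTA2, which lie on either side of the 2-fold threshold.

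MTA3 (chr2:42494569-42756947, plus strand) had a peak in DE. It stood at 30.4 TPM in hESCs, 81.8 TPM in DE, 56.0 TPM in PGT, 32.1 TPM in PP, 36.7 TPM in SC-β and 31.1 TPM in PH. DE was 2.69-fold above hESCs, PGT lay between, and PP, SC-β and PH were within 1.21-fold of hESCs. The share of MTA3 in the sum of the 3 MTA genes was 31.1% in DE and 17.3% in SC-β. SC-β against DE, CHD3 was past 2-fold higher and MTA3 past 2-fold lower, beside 8.95% of all names higher and 4.59% lower, and the other 8 genes were not past 2-fold.

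MBD2 and MBD3 define alternative forms of NuRD. MBD2 binds methylated CpG, and mammalian MBD3 does so poorly or not at all. MBD2 (chr18:54151606-54224669, minus strand) stood at 17.2 TPM in hESCs, 23.2 TPM in DE, 21.2 TPM in PGT, 14.3 TPM in PP, 14.6 TPM in SC-β and 15.7 TPM in PH. MBD3 (chr19:1573596-1592865, minus strand) stood at 30.7 TPM in hESCs, 50.0 TPM in DE, 54.3 TPM in PGT, 57.9 TPM in PP, 53.3 TPM in SC-β and 45.2 TPM in PH. MBD3 was the more abundant in all 6 stages. Its share of the pair was 64.1% in hESCs, then 68.3% in DE and 71.9% in PGT, followed by 80.2% in PP, 78.5% in SC-β and 74.3% in PH, lowest in hESCs and highest in PP. Neither gene was past 2-fold in any of the 10 comparisons.

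**Figure D2:**
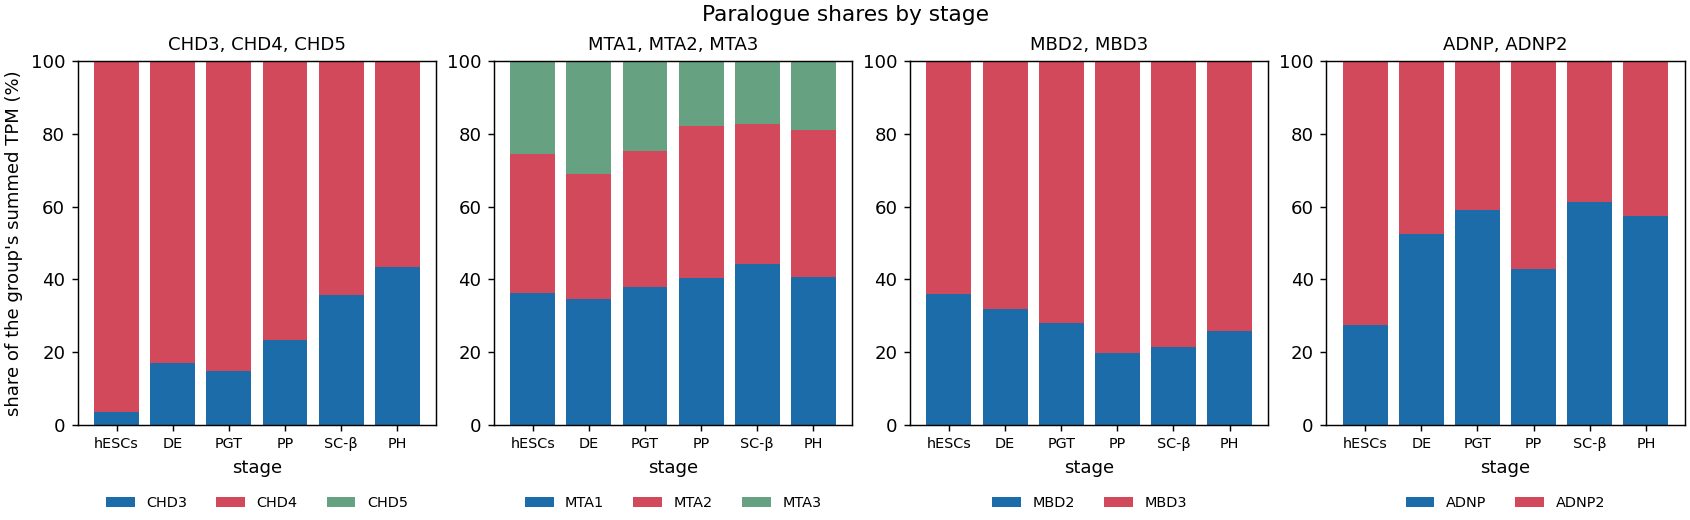
Share of each paralogue (%) in the summed TPM of its group, by stage, from the authors' means and without error bars. The CHD3 share is 3.53% in hESCs and 43.3% in PH, the MTA3 share is highest in DE (31.1%), the MBD3 share is highest in PP (80.2%), and ADNP makes up less than ADNP2 in hESCs and PP; CHD5 is too low to be seen.

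The counts of the 10 genes past 2-fold were set beside the share of all 49085 names past 2-fold in the same direction. DE against hESCs, 4 genes were higher (ADNP, CHD3, MTA1 and MTA3) and 0 lower, beside 12.9% of all names higher and 2.55% lower. PGT against hESCs, CHD3 was higher and ADNP2 lower, beside 10.1% higher and 4.34% lower. PP against hESCs, CHD3 alone was higher and 0 were lower, beside 7.98% and 4.06%. CHD3 was in the higher set in each of these stages. PH against hESCs, ADNP and CHD3 were higher and 0 lower, beside 12.1% and 8.35%. SC-β against hESCs, ADNP, CHD3 and MTA1 were higher and 0 lower, beside 22.2% and 3.7%. These 5 comparisons share the hESC samples.

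Between the later stages few of the genes passed 2-fold. PGT against DE, 0 genes were higher and 1 lower (ADNP2), beside 2.3% of names higher and 4.92% lower. PP against PGT, 0 were past 2-fold either way, beside 2.74% higher and 3.25% lower, and SC-β against PP the count was also 0 either way, beside 10.6% and 0.939%. CHD3 and ADNP had the largest of these SC-β to PP ratios, 0.79 and 0.90 on the log2 scale, which did not reach 2-fold. PH against PP, CHD3 was higher and 0 genes were lower, beside 5.14% and 5.73%. PH against SC-β, 0 genes were past 2-fold either way, beside 2.41% higher and 14.7% lower.

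Most of the names in the table are at low levels, so the shares are larger among names that reached 1 TPM in either stage compared. There 28.2% were past 2-fold higher in DE against hESCs and 42.4% in SC-β against hESCs. The 4 and 3 of 10 genes counted in those comparisons stand beside these shares.

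Part of the difference from hESCs was common to expressed genes. The median log2 ratio over names at 1 TPM or more in either stage was 0.58 in DE, 0.41 in PGT, 0.31 in PP, 0.28 in PH and 0.83 in SC-β, each against hESCs, and the medians of the 10 genes were 0.82, 0.72, 0.52, 0.48 and 0.57. A rescaling of each stage to the median ratio over the 13938 names at 1 TPM or more in all stages shifted the log2 ratios to hESCs by 0.48 in DE, 0.34 in PGT, 0.25 in PP, 0.03 in PH and 0.52 in SC-β. After it the log2 ratio of CHD3 to hESCs was still 2.41 for DE, 2.07 for PGT, 3.03 for PP, 3.55 for SC-β and 4.55 for PH. Of the 4 genes past 2-fold in DE only CHD3 stayed so, with ADNP at 0.98, MTA3 at 0.93 and MTA1 at 0.59. ADNP stayed past 2-fold in SC-β (1.03) and PH (1.01), and MTA1 did not (0.60 in SC-β). For ADNP, DE and SC-β were thus no longer set apart from PH.

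The rescaling turned the sign of some small ratios to hESCs. CHD4 went from 0.32 to -0.01 in PGT and from 0.36 to -0.16 in SC-β. After the rescaling CHD4 was lowest in SC-β and highest in PH, at 0.38 to hESCs, and no longer lowest in hESCs and highest in DE. MBD2 went from 0.41 to -0.05 in DE and from 0.29 to -0.04 in PGT, and MTA3 went from 0.08 to -0.17 in PP and from 0.26 to -0.24 in SC-β. ADNP2 was lower than in hESCs in all 5 stages with and without the rescaling, from -0.05 (DE) to -1.21 (PGT) without it and from -0.52 (DE) to -1.54 (PGT) with it. PH against SC-β, 4 of the 10 genes had a positive ratio as deposited and 8 after rescaling.

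The difference from hESCs also varied with transcript length. Over 14575 protein-coding names, the median log2 ratio of DE to hESCs was 0.03 in the tenth with the shortest transcripts and 0.64 in the tenth with the longest, and for SC-β to hESCs it was 0.02 and 1.00. Most of the 10 genes have long transcripts, and 8 of them fall in length deciles 8 to 10. With the median of its own decile subtracted, CHD3 stood 2.26 above hESCs in DE, 3.15 in SC-β and 4.21 in PH on the log2 scale. It was the only gene of the 10 past 2-fold higher than hESCs in those stages on that scale. ADNP came to 0.86 in DE, 0.64 in SC-β and 0.70 in PH, and CHD4 came to 0.00 in DE and -0.53 in SC-β. ADNP2 came to -1.23 in SC-β, and it reached 2-fold lower in PH too. The ratios of SC-β to DE were not adjusted in this way.

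**Figure D3:**
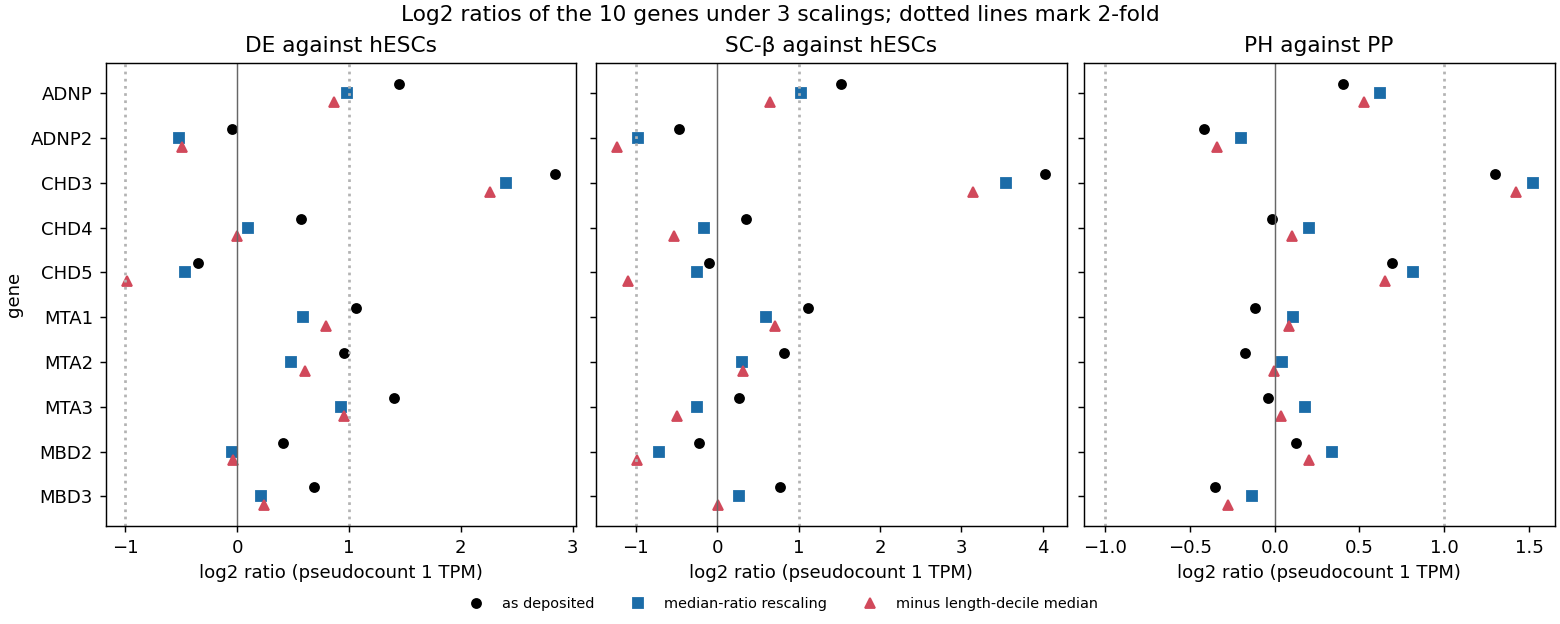
Log2 ratios (pseudocount 1 TPM) of the 10 genes in DE and SC-β against hESCs and in PH against PP, as deposited (circles), after median-ratio rescaling (squares) and after subtraction of the median of names of like transcript length (triangles); dotted lines mark 2-fold and each panel has its own axis range. CHD3 lies beyond 2-fold under all 3 scalings, at 2.26 to 2.84 in DE, 3.15 to 4.03 in SC-β and 1.30 to 1.52 in PH, whereas ADNP, MTA1 and MTA3 in DE fall below 2-fold under both adjustments.

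Markers of neuronal and mesenchymal cells also differed between the stages. The summed TPM of 10 neuronal markers was 1429 in PH, the stage with the highest CHD3 level, and all 10 were past 2-fold higher in PH than in PP. This sum was 241 in SC-β and 211 in hESCs, and it was 83.6 in DE, with PGT at 130.1 and PP at 126. Although the sums of SC-β and hESCs were close, 5 of the 10 markers were past 2-fold higher in SC-β (STMN2, ELAVL4, MAP2, DCX and SNAP25). Only 1, TUBB3, was past 2-fold lower there. Of all names, 22.2% were higher and 3.7% lower in that comparison, and of names at 1 TPM or more, 42.4% and 7.08%. After rescaling 5 of the markers were higher and 2 lower. TUBB3, a neuronal tubulin, stood at 545 TPM in PH, 117 TPM in hESCs and 54.3 TPM in SC-β. The summed TPM of 8 mesenchymal markers, among them COL1A1 and DCN, was 960 in PH and 1725 in SC-β against 66.8 to 164 in the other 4 stages, and all 8 were past 2-fold higher in PH than in PP and in SC-β than in hESCs. None of either list was listed at 0 in PH or SC-β. PH against PP, 5.14% of all names and 11.5% of names at 1 TPM or more were past 2-fold higher. The shares lower were 5.73% and 12.8%. In PH, 7 of 10 endocrine markers, 3 of 5 pancreatic progenitor markers and 2 of 5 endoderm markers reached 1 TPM. The endocrine factor PAX4 and the endoderm factors SOX17 and EOMES were listed at 0 there. SOX17 and EOMES also stayed below 1 TPM at the PP and SC-β stages. Of the endoderm markers, CXCR4 was past 2-fold higher in PH than in PP and FOXA2 lower, and their summed TPM was 108 against 38.8. Of the endocrine markers, CHGB and INSM1 were past 2-fold higher in PH than in PP, and CHGA and PAX4 lower. The summed TPM of the endocrine markers was 227 in PH, 312 in PP and 4191 in SC-β. The part of these cell types in the CHD3 and CHD5 values was not tested.

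The other core subunits of NuRD and the HP1 partners of ChAHP are described with 2 comparisons, SC-β against hESCs and PH against PP. For these and the further lists, the shares past 2-fold in SC-β against hESCs are 22.2% of all names and 42.4% of names at 1 TPM or more higher, and 3.7% and 7.08% lower. In PH against PP they are 5.14% and 11.5% higher, and 5.73% and 12.8% lower. Of 7 other core subunits, 2 were past 2-fold higher in SC-β than in hESCs, RBBP4 (60.0 against 128 TPM), a histone-binding subunit, and GATAD2B (2.82 against 13.6 TPM), which bridges CHD4 to the rest of the complex. After rescaling 1 of the 7 was higher and 1 lower. The deacetylases HDAC1 and HDAC2 stood at 78.8 and 68.4 TPM in SC-β against 98.1 and 98.3 TPM in hESCs. The median log2 ratio of these 7 was 0.16, beside 0.83 for all names at 1 TPM or more. PH against PP, none of the 7 was past 2-fold in either direction, and their median was -0.58, beside -0.10 for all names.

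Of the 3 HP1 genes, CBX5 (HP1α) was past 2-fold higher in SC-β than in hESCs, at 145 against 53.9 TPM, and lower in PH (56.2 TPM) than in PP (122 TPM). After rescaling neither of these CBX5 ratios reached 2-fold. CBX1 (HP1β) lay between 109 and 169.8 TPM and CBX3 (HP1γ) between 94.8 and 142 TPM over the 6 stages. The partner genes of ADNP and CHD4 in ChAHP were thus all expressed in every stage.

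Of 13 genes for NuRD-recruiting zinc finger proteins and associated factors, 5 were past 2-fold higher and 1 lower in SC-β than in hESCs, and 3 and 3 after rescaling. PH against PP, 3 were higher and 2 lower. SALL4, a zinc finger protein of pluripotent cells, stood at 103 TPM in hESCs, 225 TPM in DE, 46.4 TPM in PP, 31.7 TPM in SC-β and 10.4 TPM in PH. SALL3, BCL11A and BCL11B, which are expressed in the nervous system among other tissues, were higher in PH (25.5, 35.6 and 10.8 TPM) than in PP (1.64, 3.03 and 1.19 TPM).

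Remodeller genes outside NuRD include the wider family of CHD3. Of 7 other CHD genes, 4 (CHD2, CHD6, CHD7 and CHD9) were past 2-fold higher in SC-β than in hESCs, with log2 ratios of 1.23 to 1.87, beside 4.03 for CHD3, and 1 of the 7 was so after rescaling. With DE in place of hESCs 0 of the 7 were past 2-fold, whereas CHD3 was. That comparison was not adjusted for transcript length. With the length-decile median subtracted, CHD3 stood 2.26 above hESCs in DE and 3.15 in SC-β. Of 4 other methyl-CpG binding domain genes, MBD1, MBD5 and MBD6 were past 2-fold higher in SC-β than in hESCs, with log2 ratios of 1.06, 2.04 and 2.83, beside -0.22 for MBD2 and 0.78 for MBD3, and 2 of the 4 were so after rescaling. Of 9 other remodeller ATPases, 6 were past 2-fold higher in SC-β than in hESCs, among them SRCAP (2.92), EP400 (2.31) and SMARCA2 (2.27), and 3 of the 9 were so after rescaling. HELLS, a remodeller of dividing cells, was the only 1 of the 9 past 2-fold in PH against PP, at 33.9 against 118 TPM. The summed TPM of 8 proliferation markers was 380 in PH and 832 in PP. Of these 8, 4 were past 2-fold lower in PH and 0 higher, and 2 were lower after rescaling. MKI67 went the other way, at 24.9 TPM in PH against 17.3 TPM in PP.

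**Figure D4:**
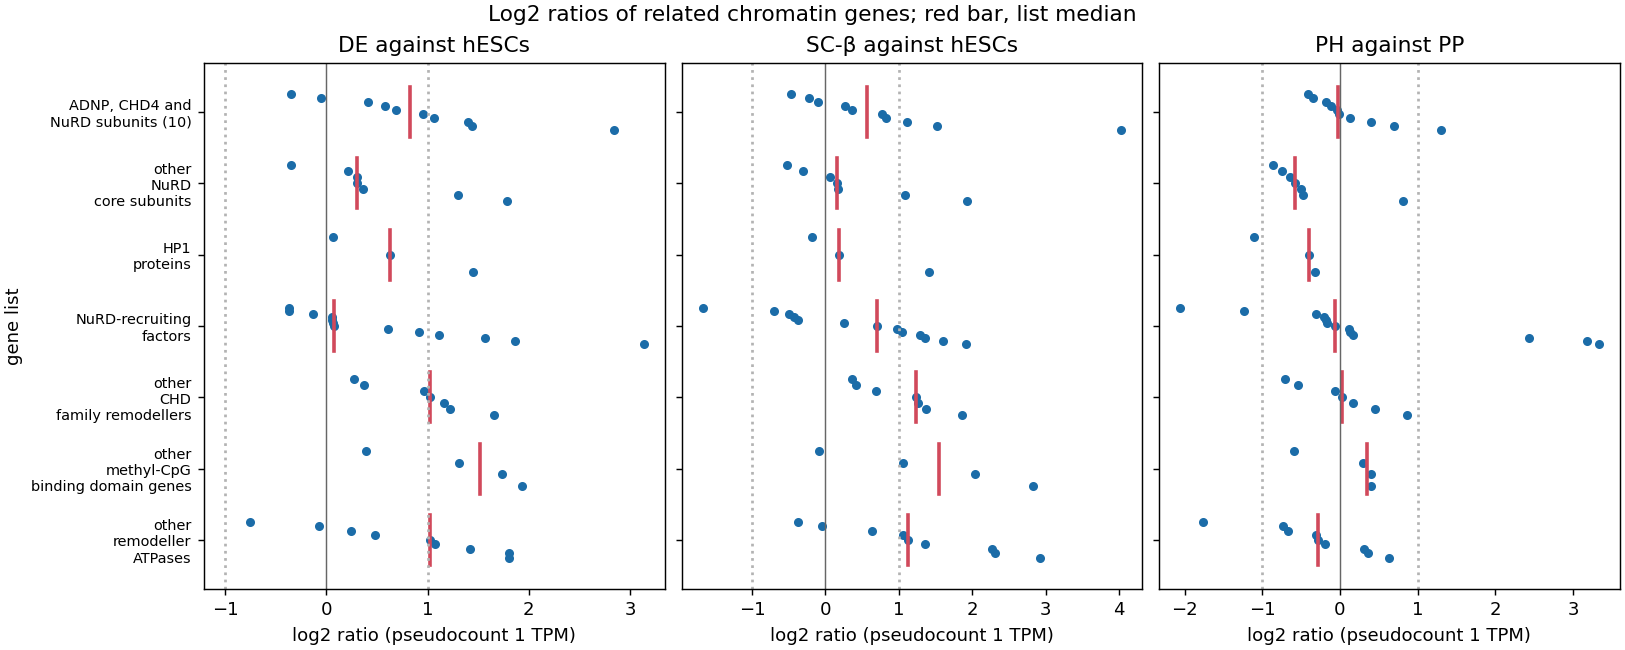
Log2 ratios (pseudocount 1 TPM) of the 10 genes and of 6 lists of related chromatin genes in DE and SC-β against hESCs and in PH against PP; each point is 1 gene, the red bar is the list median, dotted lines mark 2-fold and each panel has its own axis range. The rightmost point of the top row in each panel is CHD3, at 2.84, 4.03 and 1.30, and the medians of the 10 genes are 0.82, 0.57 and -0.03.

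The names whose log2 levels followed each gene most closely over the 6 stages were found among the 12848 other names at 10 TPM or more in some stage, for the genes whose own range was at least 1 on the log2 scale. These are descriptions over 6 means that share their stages, and with 6 points many names reach a high correlation. For CHD3 the closest were TBC1D10B, ZFAND3 and NCKAP5L (Pearson's r = 0.997, 0.997 and 0.997), and 232 names were above 0.95. TBC1D10B spanned 7.14 TPM in hESCs to 24.7 TPM in PH, a far smaller range than that of CHD3. For ADNP they were MAPK7, AHCYL2 and PAN2 (r = 0.998, 0.995 and 0.994), with 110 names above 0.95, and for ADNP2 they were C12orf45, C7orf50 and TAF5L (r = 0.992, 0.976 and 0.974), with 9. For MTA1 they were KIAA0753, PRH1 and CTD-2228K2.7 (r = 0.998, 0.998 and 0.995), with 294, and for MTA3 they were ATHL1, BIK and SPSB1 (r = 0.995, 0.989 and 0.987), with 64. No gene of the 10 was among the closest names of another.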

How the data were processed

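RNA was measured by RNA-seq in 12 samples of 6 stages. Per the submitters' processing notes and the study's methods, the authors used HISAT2 (version 2.2.0) for alignment to hg38 and StringTie (version 2.1.6) for the TPM values. The annotation is not given in the sources used here. The study's methods name RiboMinus and the labels a TruSeq Stranded mRNA kit. The authors deposited 1 mean TPM per gene and stage (50451 entries under 49085 names), with no replicate values, counts or comparison columns. Entries that share a name were summed.

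Log2 ratios used a pseudocount of 1 TPM and a 2-fold threshold over the whole table, in 10 comparisons of stages and, added after seeing the data, SC-β against DE. No test was possible, since each stage is 1 mean. Named are all 10 genes, up to 4 genes of each other list with the largest ratio past 2-fold in PH against PP or SC-β against hESCs, and the 3 names most correlated with each gene that had a range of at least 1. HDAC1, HDAC2, CBX1, CBX3, marker genes, small RNA genes and overlapping genes were named after their values were seen. The genes, lists and comparisons were chosen with earlier results of these data known. Marker lists were written from general knowledge. A gene of the comparison lists is not reported here and was left out of the counts. Positions came from GENCODE release 44 on GRCh38, which is the hg38 build, and promoter windows from RefSeq (GRCh38.p14). Transcript length was the longest GENCODE transcript of a name. The alternatives were a pseudocount of 0.1, a 1.5-fold threshold, median-ratio rescaling, leaving out the 100 most abundant names and the mitochondrial genes, the highest entry for repeated names, and, chosen after seeing the data, subtraction of the length-decile median and DE in place of hESCs. The calculation was tested on simulated data. Python 3.11.15, numpy 2.4.6, pandas 2.3.3 and matplotlib 3.10.9 were used.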

Additional observations from a re-analysis of the deposited data

How the results depend on the processing

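No paired analysis was possible because the deposited columns are means over the replicates, and leaving out a replicate was not possible for the same reason. No log2 ratio counted as past 2-fold changed sign, and the rescaling, which multiplies all genes of a stage alike, leaves paralogue shares as they are. The shares were not adjusted for transcript length, which differs between some paralogues. MTA1, MTA2 and MTA3 fall in length deciles 4, 5 and 8. CHD3 stayed past 2-fold against hESCs in all 5 stages under every alternative. The following counts of the 10 genes past 2-fold moved by more than 1.5 times or to or from 0, and the cause was not tested. Under the rescaling, DE against hESCs had 1 gene higher in place of 4, and PH against SC-β had 1 in place of 0. With the length-decile median subtracted, DE, PH and SC-β against hESCs had 1 higher each, PH had 1 and SC-β 2 lower, and PH against SC-β had 2 higher. With a pseudocount of 0.1, CHD5 counted as well, so that DE had 1 and PGT 2 genes lower than hESCs, PH against PP had 2 higher and PH against SC-β had 1. Without the most abundant names, PP against hESCs, PP against PGT and PH against PP had 2 higher each, and PH against SC-β had 1. At 1.5-fold, PGT, PP and SC-β against hESCs had 6, 5 and 5 higher, PH against hESCs had 1 lower, PGT against DE had 2 lower, PP against PGT had 2 higher and 1 lower, and SC-β against PP and PH against PP had 2 higher each. Moves within 1.5 times were DE and PH against hESCs to 6 and 3 higher at 1.5-fold, and DE and SC-β to 3 and 2 higher without the most abundant names, among others. For the other lists, SC-β against hESCs under the rescaling had 1 higher and 1 lower of the other NuRD subunits, 0 higher HP1 genes, 3 higher and 3 lower recruiting factors, 1 higher CHD gene, 2 higher methyl-CpG binding domain genes and 3 higher ATPases. With DE in place of hESCs these were 0 NuRD subunits, 0 HP1 genes, 2 higher and 2 lower recruiting factors, 0 CHD genes, 0 methyl-CpG binding domain genes and 2 ATPases. PH against PP, the rescaling and the omission of the most abundant names each gave 1 higher NuRD subunit, 1 higher CHD gene and 0 lower HP1 genes, and the omission gave 1 higher NuRD subunit in SC-β against hESCs. The unknown depth and the lack of replicate values limit every result.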
